A study of Mus musculus with 16 samples.

Results

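The 10 genes examined here, of 55487 genes counted in each of 16 mouse hearts, encode proteins of intermediate filaments and of the dystrophin complex. Not all of them belong chiefly to heart muscle cells. They are Des, Vim, Nes, Synm, Lmna and Plec, which encode intermediate filament proteins and the linker that binds them, and Dmd, Dtna, Sgcd and Sgca, which encode dystrophin and proteins of its complex. The members were taken as the rows of the count table whose Ensembl identifiers carry these 10 symbols. All 10 were found and all 10 passed the filter on low counts. In the heart, desmin filaments run from Z-disc to Z-disc and out to the cell membrane, the intercalated disc and the nucleus, where the lamins form the corresponding network under the nuclear envelope. Dystrophin links the actin cytoskeleton to dystroglycan and, through it, to laminin outside the cell, and the sarcoglycans stabilize this link in the membrane. Inherited loss of desmin, lamin A/C, dystrophin or the sarcoglycans causes cardiomyopathy, often together with muscular dystrophy.

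RNA came from the apex of the heart of male mice weighing 25 to 30 g, taken 4 weeks after an operation, with 4 mice in each of 4 groups. Ctrl mice were wild type for Cardinal (Gm12295, a long noncoding RNA) and Cardinal KO mice carried a germline CRISPR/Cas9 deletion of it, so that every cell type of the body lacked the gene, not only cardiomyocytes. The TAC groups had transverse aortic constriction, a ligature around the aorta against which the left ventricle must pump, and the sham groups had the same operation without the ligature. They are called Ctrl sham and KO sham, and Ctrl TAC and KO TAC, here. Age and strain are not given in the sources used here. Library totals ranged from 53169437 to 79404714 counts, and mitochondrial genes took between 21.9% and 28.8% of them.

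Cardinal itself was read in every library first. It stood at 3.54 ± 0.280 CPM (SD, n = 4; CPM is the count scaled to the size of the library) in Ctrl sham and at 0.465 ± 0.119 CPM in KO sham, a log2 difference of -2.92 ± 0.82 (SE) that did not pass the test across all genes although no libraries overlapped. In Ctrl TAC it was 8.02, 2.69, 3.04 and 3.37 CPM, and its change after TAC in Ctrl was log2 0.27 ± 0.69 (edgeR adjusted p = 0.84). Among KO TAC libraries it was 0.371, 0.276 and 0.368 CPM in the first 3, but 4.55 CPM in the library labelled KO TAC 4. That is above every Ctrl sham library and every Ctrl TAC library but Ctrl TAC 1. That library therefore goes against its label, and for the members the counts of calls and the log2 fold changes that use it are given with and without it. Counts of genes without overlap and group means include it. Ctrl TAC 2 stood apart from the other Ctrl TAC libraries on the second principal component. The animal numbers of Ctrl TAC 2, 3 and 4 and of KO TAC 4 start with 25, those of Ctrl sham 4 and KO sham 1, 2 and 3 with 33. Those of KO sham 4, Ctrl TAC 1 and KO TAC 1, 2 and 3 start with 34, those of Ctrl sham 2 and 3 with 32, and that of Ctrl sham 1 with 36. What this marks is not given in the labels. In Ctrl no series holds both sham and TAC hearts, so surgery and series cannot be told apart there. A term for numbers starting with 25 sets Ctrl TAC 1 against Ctrl TAC 2, 3 and 4, and KO TAC 4 against KO TAC 1, 2 and 3. It thus leans on a single heart in each TAC group, in KO the heart whose genotype is in doubt. Fits with this term, given below, cannot cleanly separate series from surgery or genotype.

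The start regions of 5 members are shown here. Des, Vim and Lmna were higher and Sgca was lower after TAC in both genotypes, and the Dmd window was added because it held a CArG box and an MEF2 site. The sequences are the RefSeq promoters of build GRCm38.p6, 250 bases before to 50 bases after an annotated start, written 5′ to 3′ on the gene's strand. Capitals mark 5 of the 6 motifs that were searched on both strands: the CArG box, the MEF2 site, the TATA box TATAAA, the GC box GGGCGG and the E-box CANNTG, where N is any base. The sixth, the AP-1 site TGANTCA, is left in lower case.
Des, chr1:75360042-75360341, plus strand: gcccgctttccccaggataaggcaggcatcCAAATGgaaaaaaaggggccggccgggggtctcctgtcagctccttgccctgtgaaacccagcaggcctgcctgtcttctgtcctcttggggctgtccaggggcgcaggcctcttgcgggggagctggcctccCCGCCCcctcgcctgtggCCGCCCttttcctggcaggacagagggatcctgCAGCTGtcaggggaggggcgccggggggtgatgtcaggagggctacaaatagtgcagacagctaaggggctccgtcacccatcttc
Vim, chr2:13574061-13574360, plus strand: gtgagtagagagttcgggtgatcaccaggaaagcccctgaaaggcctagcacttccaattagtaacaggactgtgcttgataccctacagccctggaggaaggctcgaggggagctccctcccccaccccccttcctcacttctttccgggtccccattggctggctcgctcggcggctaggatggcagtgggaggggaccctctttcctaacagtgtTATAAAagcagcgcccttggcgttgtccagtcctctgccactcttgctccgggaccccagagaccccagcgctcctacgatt
Lmna, chr3:88503303-88503602, minus strand: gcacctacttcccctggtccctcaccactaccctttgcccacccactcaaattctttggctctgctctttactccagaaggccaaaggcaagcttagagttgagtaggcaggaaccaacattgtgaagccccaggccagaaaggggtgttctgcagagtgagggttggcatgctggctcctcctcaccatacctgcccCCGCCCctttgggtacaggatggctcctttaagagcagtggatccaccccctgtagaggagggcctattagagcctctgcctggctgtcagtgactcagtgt
Sgca, chr11:94976278-94976577, minus strand: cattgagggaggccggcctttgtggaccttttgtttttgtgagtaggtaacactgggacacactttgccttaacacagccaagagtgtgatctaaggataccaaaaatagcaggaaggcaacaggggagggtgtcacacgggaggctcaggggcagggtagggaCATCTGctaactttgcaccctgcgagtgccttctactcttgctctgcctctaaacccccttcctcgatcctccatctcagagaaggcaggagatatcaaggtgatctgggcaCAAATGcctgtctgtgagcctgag
Dmd, chrX:82948620-82948919, plus strand: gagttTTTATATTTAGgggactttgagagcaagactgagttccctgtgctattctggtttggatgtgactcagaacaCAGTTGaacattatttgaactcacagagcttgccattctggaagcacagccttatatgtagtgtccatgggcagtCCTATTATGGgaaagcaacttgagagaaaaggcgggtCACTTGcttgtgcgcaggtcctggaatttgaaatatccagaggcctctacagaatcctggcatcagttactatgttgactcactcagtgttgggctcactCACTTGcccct

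In these windows, Des held 2 E-boxes, at positions -220 and -36 from the start, and 2 GC boxes on the minus strand, at -87 and -69. Vim held a TATA box at -32, and its window lies inside the gene as annotated by GENCODE. Lmna held a GC box at -52 and an AP-1 site at 40, and this window is at one of its RefSeq starts, inside the gene. The other Lmna promoter, chr3:88493263-88493562, held none of the 6 motifs. Sgca held 2 E-boxes, at -86 and 27. The Dmd window, at the first base of the gene as annotated by GENCODE, held a CArG box at -98, an MEF2 site at -244 that overlaps a TATA box on the minus strand at -245, 3 E-boxes, and 2 AP-1 sites at -185 and 15. The other Dmd promoter, chrX:85048045-85048344, held neither a CArG box nor an MEF2 site. Among all 32851 promoters of the same length, 1.63% held a CArG box, 3.19% an MEF2 site, 13.6% a TATA box, 7.81% an AP-1 site, 35.7% a GC box and 72.3% an E-box. Because the Dmd window was chosen by its CArG box and MEF2 site, those matches cannot be read against these shares. A match describes these letters in this window and nothing about whether a factor binds there. RefSeq promoters were matched for 8 of the 10 members (10 promoters in all); none is shown for Plec and Dtna.

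Before any comparison of groups, the members were ordered by their level per kilobase of exon (CPM per kb) in Ctrl sham hearts. Desmin was far above the rest, at 361 ± 13.2 CPM per kb (SD, n = 4). Sgca followed with 53.4 ± 3.93 and Vim with 35.4 ± 4.01 CPM per kb, without overlap between their libraries. Lmna (13.6 ± 0.751) and Plec (12.5 ± 0.615) overlapped in their libraries, as did Nes (6.05 ± 0.917) and Dmd (4.49 ± 0.563). Dtna (3.17 ± 0.168), Sgcd (2.55 ± 0.0809) and Synm (1.29 ± 0.194 CPM per kb) came last, each apart from the next. The order was the same in KO sham hearts. In both TAC groups Vim stood above Sgca, at 50.6 ± 2.44 against 43.4 ± 3.71 CPM per kb in Ctrl TAC and at 58.9 ± 2.60 against 37.7 ± 1.67 in KO TAC. Within the sarcoglycan pair, Sgca was over an order of magnitude above Sgcd per kilobase in every group. Counts were summed over isoforms, so a gene with long untranslated exons in rare isoforms is lowered on this scale.

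**Figure D1:**
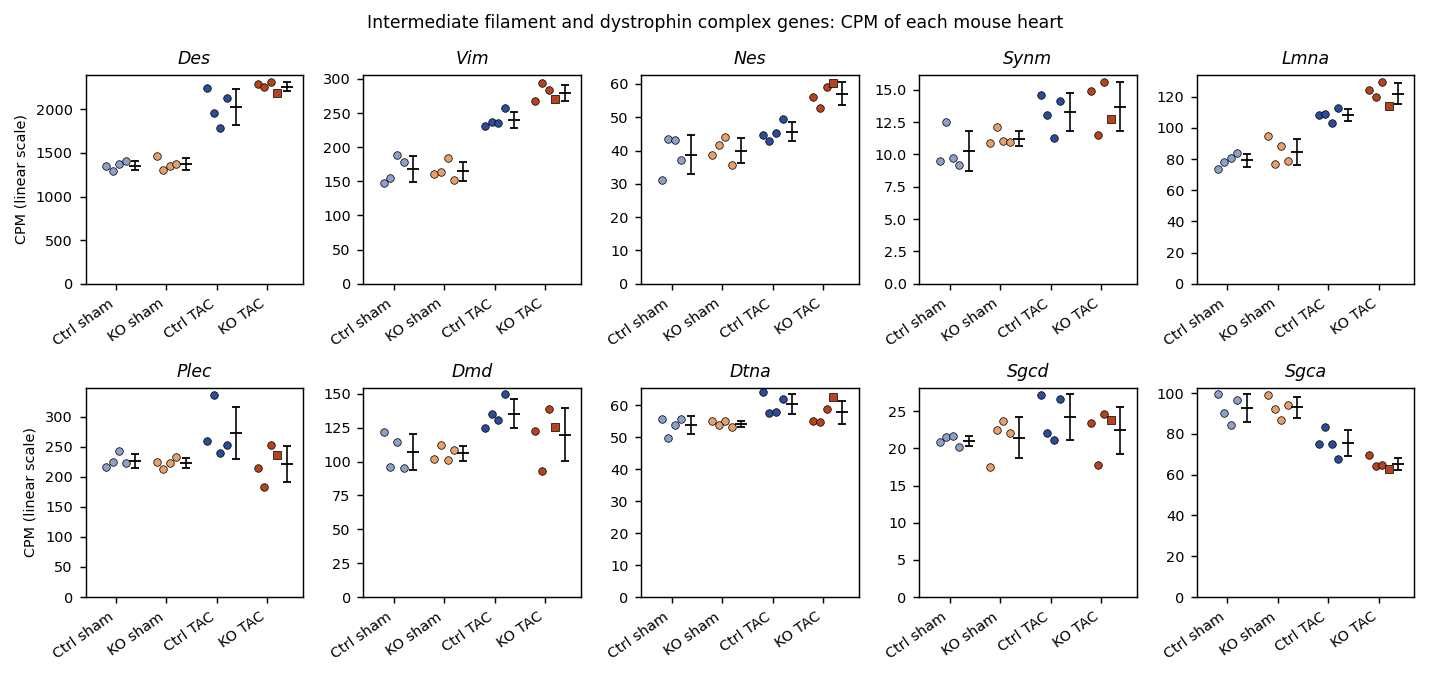
CPM of the 10 members (linear axes from 0) in each heart of the 4 groups. Points are single libraries, the square is the library labelled KO TAC 4, and the bar beside each group is the mean with its SD (n = 4). Des, Vim and Lmna sit higher and Sgca lower in every TAC heart than in the sham hearts of the same genotype, and the Plec, Dmd and Sgcd libraries of KO TAC spread widely.

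The first question was how pressure overload changed these genes in Ctrl hearts. Of the 10 members, 7 were called at an adjusted p under 0.05, 6 higher and 1 lower, where 20.0% of the 18275 genes tested were called (10.4% higher and 9.60% lower). The libraries of the 2 groups did not overlap for 6 members, against 20.5% of all genes. Their median log2 fold change was 0.30, that of all genes 0.00. In KO hearts, 6 of 10 were called after TAC, 5 higher and 1 lower, where 34.3% of all genes were called (17.8% higher and 16.5% lower), and 5 did not overlap between sham and TAC, against 34.6% of all genes. The median of the members was 0.23 and that of all genes -0.00. Without KO TAC 4, 5 of the 10 were called in KO hearts, and the share of all genes in that fit is not given here. In bulk tissue, more or fewer cells of a type and more or less RNA per cell cannot be told apart.

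Desmin, the muscle intermediate filament (chr1:75360329-75368579), rose in both genotypes. Its CPM was 1351, 1290, 1370 and 1409 in Ctrl sham and 2250, 1954, 1783 and 2132 in Ctrl TAC. In KO mice it was 1463, 1308, 1353 and 1373 after sham and 2286, 2261, 2314 and 2185 after TAC. Every TAC heart was above every sham heart. Des rose by log2 0.58 ± 0.06 (SE) in Ctrl (edgeR adjusted p = 3.6e-06) and by 0.72 ± 0.06 in KO (1.65-fold, adjusted p = 1.12e-07; 0.74 without KO TAC 4). An opposite-strand gene, Gm15179, covers 5.86% of its exon bases, and the use of strand in counting is not given in the sources used here.

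Vimentin, the filament of fibroblasts, endothelial and other non-muscle cells (chr2:13573927-13582826), also rose in both genotypes. In Ctrl it read 148, 155, 188 and 179 CPM after sham and 231, 236, 236 and 257 CPM after TAC. In KO it read 161, 163, 184 and 151 CPM after sham and 268, 295, 284 and 271 CPM after TAC. Again no TAC heart overlapped a sham heart. The log2 fold change was 0.52 ± 0.07 in Ctrl (1.43-fold, adjusted p = 6.69e-05) and 0.76 ± 0.07 in KO (1.70-fold, adjusted p = 3.39e-07; 0.78 without KO TAC 4).

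Markers of fibroblasts moved in the same direction. The summed level of 10 fibroblast markers was 538 to 625 CPM in Ctrl sham, 557 to 586 in KO sham, 850 to 1276 in Ctrl TAC and 1458 to 1597 in KO TAC, with 5 of the 10 higher after TAC in Ctrl and 9 in KO. For 10 macrophage markers, whose cells also carry vimentin, the sums were 139 to 182, 135 to 157, 198 to 225 and 210 to 276 CPM in the same order of groups, with 6 of 10 higher in Ctrl and 10 in KO. The 10 endothelial markers summed to 871 to 891, 865 to 1000, 843 to 1023 and 841 to 943 CPM, with none higher in Ctrl and 1 in KO. The 10 cardiomyocyte markers, whose cells are the site of desmin, summed to 58767 to 67000, 60241 to 65772, 53302 to 57999 and 47224 to 48824 CPM, with 2 higher and 5 lower in Ctrl and 1 higher and 7 lower in KO. The 10 markers of smooth muscle cells and pericytes, which also hold desmin and vimentin, summed to 724 to 807, 732 to 748, 734 to 809 and 740 to 857 CPM, with 3 higher in Ctrl and 4 in KO. No marker of these 5 lists was under 1 CPM in every library. Schwann cell and glia markers summed to 16.4 to 17.9, 16.4 to 19.9, 10.2 to 17.3 and 7.92 to 10.6 CPM, with 2 of the 8 lower in Ctrl, 6 lower in KO and none higher, and Foxd3 and Ngfr were among those of their 8 that stayed under 1 CPM in every library. The sum did not exceed 7.43 CPM for 8 skeletal muscle markers (Myh1, Myh2, Tnni2, Mylpf and Actn3 under 1 CPM throughout) and 3.33 CPM for 6 adipocyte markers (Adipoq, Plin1, Cidec, Retn and Lep under 1 CPM throughout). The part of cell composition in the change of Vim, Des or any other member was not tested.

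Nestin, a filament of progenitor, endothelial and some other cells (chr3:87971078-87980451), read 31.2, 43.6, 43.3 and 37.1 CPM in Ctrl sham and 44.8, 42.8, 45.3 and 49.6 in Ctrl TAC, so that the groups overlapped. The change in Ctrl, log2 0.23 ± 0.09, did not pass the test (adjusted p = 0.0835), although it did without Ctrl sham 2 or 3, at 0.29 in both fits (adjusted p = 0.0409 and 0.0464). In KO it was 38.5, 41.8, 44.0 and 35.6 CPM after sham and 56.0, 52.8, 59.2 and 60.4 after TAC. Here every TAC heart was above every sham heart, and Nes rose by 0.51 ± 0.09 (1.43-fold, adjusted p = 0.000279; 0.49 without KO TAC 4). The difference between these 2 changes, tested as the interaction, was 0.28 ± 0.13 and did not pass (adjusted p = 0.433).

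Lamin A/C, the product of Lmna (chr3:88480147-88509956), lines the inside of the nuclear envelope. Its RNA was 73.8 to 84.2 CPM in Ctrl sham, 76.6 to 94.9 in KO sham, 103 to 113 in Ctrl TAC and 114 to 130 in KO TAC. The TAC hearts of each genotype lay above its sham hearts. Lmna rose by log2 0.45 ± 0.06 in Ctrl (1.37-fold, adjusted p = 7.99e-05) and by 0.52 ± 0.06 in KO (1.44-fold, adjusted p = 6.19e-06; 0.56 without KO TAC 4).

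Synemin, a large filament protein that joins desmin filaments to the costameres (Synm, chr7:67730160-67759742), was the member with the lowest level per length. Its libraries overlapped between sham and TAC in both genotypes, from 9.19 to 12.5 CPM in Ctrl sham, 10.9 to 12.1 in KO sham, 11.3 to 14.6 in Ctrl TAC and 11.5 to 15.6 in KO TAC. It rose by log2 0.37 ± 0.11 in Ctrl (adjusted p = 0.0214) and by 0.29 ± 0.11 in KO, where it was just past the threshold (adjusted p = 0.0497). Without KO TAC 4 the KO value was 0.32 and no longer passed (adjusted p = 0.0505). It also missed the threshold when Ctrl sham 1 or 3, any KO sham library, Ctrl TAC 2 or 4, or KO TAC 1 or 3 was left out, with values of 0.22 to 0.32 over these 11 fits (adjusted p = 0.0505 to 0.165). With a term for animal numbers starting with 33 it was 0.23 (adjusted p = 0.288), and it was also lost with RLE scaling (adjusted p = 0.0507) and with no filter on low counts (adjusted p = 0.0567). The Ctrl call was lost without Ctrl sham 1, 3 or 4 or Ctrl TAC 1 or 4 (0.33 to 0.35, adjusted p = 0.0577 to 0.0735). Ttc23 and Gm45102, on the opposite strand, cover 6.43% of its exon bases.

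Plectin, the giant linker that fastens intermediate filaments to Z-discs, costameres and the nucleus (Plec, chr15:76170974-76232574), did not pass the test in either genotype. It was 216, 225, 242 and 222 CPM in Ctrl sham and 224, 213, 223 and 234 in KO sham. In Ctrl TAC the values were 260, 336, 240 and 254 CPM, and in KO TAC 214, 183, 253 and 236. The highest value was that of Ctrl TAC 2 and the lowest that of KO TAC 2. The log2 fold change was 0.27 ± 0.10 in Ctrl (adjusted p = 0.0659; 0.15 without Ctrl TAC 2) and -0.01 ± 0.10 in KO (adjusted p = 0.941; -0.05 without KO TAC 4). The Ctrl change passed without Ctrl TAC 3 (0.32, adjusted p = 0.035), without KO TAC 2 (0.27, adjusted p = 0.0352) and with DESeq2 (adjusted p = 0.0439). The interaction was -0.28 ± 0.14 (adjusted p = 0.467).

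Dystrophin RNA (Dmd, chrX:82948870-85206141) read 122, 96.1, 114 and 95.1 CPM in Ctrl sham and 125, 135, 131 and 150 in Ctrl TAC, without overlap. It rose by log2 0.34 ± 0.10 in Ctrl (1.26-fold, adjusted p = 0.0295). Leaving out Ctrl sham 2 or 4, or Ctrl TAC 2 or 4, gave 0.29 to 0.34, none past the threshold (adjusted p = 0.0541 to 0.0966). Neither did it pass with a term for animal numbers starting with 25 (0.25, adjusted p = 0.278) or 33 (0.31, adjusted p = 0.0525), or with no filter on low counts (adjusted p = 0.0632). In KO it read 102, 112, 101 and 108 CPM after sham and 123, 92.8, 139 and 126 after TAC, with the second TAC heart below every sham heart. The KO change of 0.18 ± 0.10 did not pass (adjusted p = 0.204; 0.16 without KO TAC 4). Without KO TAC 2 it was 0.28 and passed (adjusted p = 0.0172).

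KO TAC 2 was also the lowest library of its group for Plec, Synm, Dtna and Sgcd. Genes with at least 10 kb of exons, a class that holds Plec, Dmd and Dtna but from which the members were left out for this measure, lay below the group mean in that library: their median deviation was -0.08 on the log2 scale over 1418 genes, with 21.9% of them above the mean. In KO TAC 3 the deviation was 0.06 and 71.2% lay above. This measure was chosen after the values were seen, and its part in the spread of Dmd and Plec was not tested.

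Alpha-dystrobrevin, a cytoplasmic partner of dystrophin (Dtna, on chromosome 18), was 49.7 to 55.7 CPM in Ctrl sham, 53.1 to 55.1 in KO sham, 57.6 to 64.3 in Ctrl TAC and 54.7 to 62.5 in KO TAC. It rose by log2 0.17 ± 0.05 in Ctrl (1.12-fold, adjusted p = 0.0328), where the groups did not overlap. It did not pass without Ctrl sham 2 or 3 or Ctrl TAC 1 or 4 (0.13 to 0.17, adjusted p = 0.0615 to 0.113), with a term for animal numbers starting with 25 (0.16, adjusted p = 0.167), with no filter on low counts (adjusted p = 0.0765) or in a fit to the 8 Ctrl libraries (adjusted p = 0.0722). In KO the change was 0.09 ± 0.05 and the groups overlapped (adjusted p = 0.207; 0.05 without KO TAC 4). The interaction was -0.08 ± 0.08 for Dtna and -0.16 ± 0.15 for Dmd, and neither passed the test (adjusted p = 0.754 and 0.738).

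The sarcoglycans are membrane proteins that assemble as a complex beside dystroglycan. Alpha-sarcoglycan (Sgca, chr11:94962791-94976327) was the only member that fell. It read 99.6, 90.1, 84.4 and 96.6 CPM in Ctrl sham against 75.0, 83.6, 75.0 and 67.8 in Ctrl TAC. In KO mice it read 99.2, 92.0, 86.9 and 94.2 CPM after sham and 69.5, 64.5, 64.9 and 62.6 after TAC. All TAC hearts lay below the sham hearts of their genotype, and in Ctrl the gap was under 1 CPM. Sgca changed by -0.30 on the log2 scale in Ctrl (SE 0.07, 0.813-fold, adjusted p = 0.00316) and by -0.51 in KO (SE 0.07, 0.703-fold, adjusted p = 9.28e-06; -0.49 without KO TAC 4). With a term for animal numbers starting with 25 the Ctrl value was -0.27 and did not pass (adjusted p = 0.0521).

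Delta-sarcoglycan (Sgcd, chr11:46896253-47988969), which sits in the same complex, was 20.2 to 21.7 CPM in Ctrl sham, 17.5 to 23.7 in KO sham, 21.1 to 27.2 in Ctrl TAC and 17.7 to 24.7 in KO TAC. Its changes of 0.20 ± 0.11 in Ctrl and 0.06 ± 0.11 in KO did not pass the test (adjusted p = 0.209 and 0.695; the KO value was 0.03 without KO TAC 4). Because both genes are read in the same library, their ratio does not depend on how libraries were scaled. In Ctrl sham hearts there were 3.90 to 4.78 Sgca counts per Sgcd count, and in Ctrl TAC hearts 2.55 to 3.79. In KO hearts the ratio was 3.66 to 5.66 after sham and 2.63 to 3.64 after TAC, so that neither pair of groups overlapped. Sgcd gained on Sgca by log2 0.50 in Ctrl and 0.57 in KO, each with p = 0.0286 in a two-sided exact permutation test, the smallest that the 70 relabellings of 8 hearts can give. Adjusted over the 12 ratio tests, p was 0.171 for both, so neither passed. With so few relabellings a ratio could pass only if most of the 12 tests reached the smallest p together. Missing the threshold therefore says little here.

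**Figure D2:**
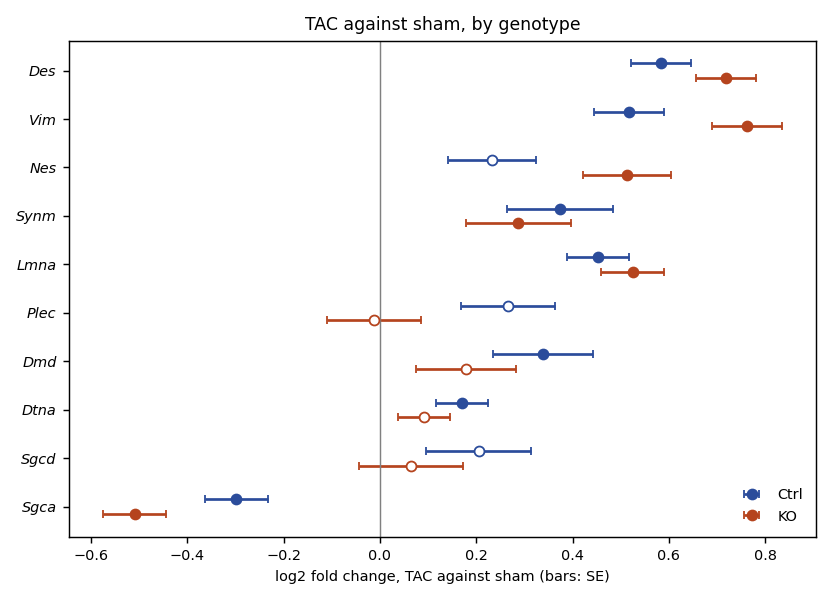
Log2 fold change of TAC against sham for the 10 members, in Ctrl and in KO hearts. Points are edgeR estimates, bars are SE, and filled points passed an adjusted p of 0.05. Des, Vim, Synm and Lmna lie to the right and Sgca to the left with filled points in both genotypes, Nes is filled in KO, and Dmd and Dtna are filled in Ctrl.

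The ratios of 2 other pairs did not separate the groups. Des counts per Vim count overlapped in all comparisons, with changes of Vim against Des between -0.06 and 0.06 on the log2 scale (exact permutation p from 0.571 to 0.657). Utrophin (Utrn), the autosomal relative of dystrophin that shares its binding to dystroglycan, was 75.4 ± 4.28, 73.4 ± 3.79, 82.1 ± 5.12 and 77.5 ± 6.68 CPM, in the order of sham hearts of Ctrl and KO and then TAC hearts of Ctrl and KO. It was not called in any comparison, and against Dmd its change after TAC was -0.22 in Ctrl and -0.09 in KO on the log2 scale, neither past the threshold (exact permutation p = 0.114 and 0.257). Dystroglycan itself (Dag1), the laminin receptor, was 324 ± 7.41, 320 ± 7.02, 333 ± 25.2 and 301 ± 24.0 CPM and was not called either.

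**Figure D3:**
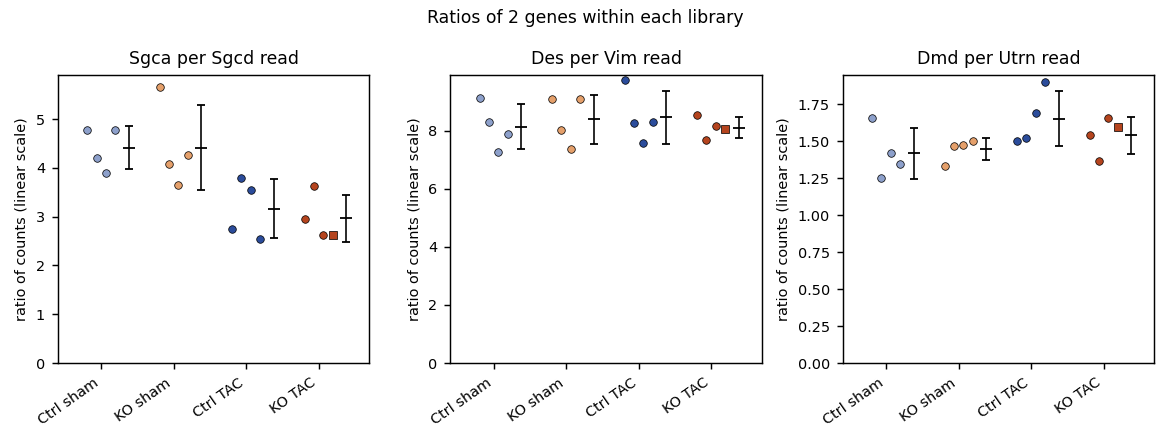
Ratios of the counts of 2 genes within each library (linear axes from 0): Sgca per Sgcd read, Des per Vim read and Dmd per Utrn read. Points are single hearts, the square is the library labelled KO TAC 4, and bars give the mean with its SD (n = 4). Sgca per Sgcd read is lower in every TAC heart than in the sham hearts of the same genotype, and the other ratios overlap between groups.

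The next question was whether loss of Cardinal changed these genes. In sham hearts, none of the 10 members was called, where 0.00% of all genes were called with edgeR (479 genes had an unadjusted p under 0.05), and no member separated the groups, against 1.78% of all genes. The log2 differences between KO and Ctrl ran from -0.03 ± 0.07 (Vim) to 0.13 ± 0.11 (Synm), with a median of 0.02. The SEs ran from 0.05 to 0.11. A p that misses the threshold does not show that the genotypes were alike.

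In TAC hearts, none of the 10 members was called between KO and Ctrl either, where 2.68% of all genes were called (1.36% higher and 1.32% lower in KO; 3380 genes had an unadjusted p under 0.05). Without KO TAC 4 none was called either. DESeq2 called 2 of the 10, Nes and Plec, but the share of all genes it called is not given here. The differences went both ways, with 5 members above 0 and 5 below, and a median of -0.01. The 3 members Vim, Nes and Lmna separated the 2 groups without overlap, against 10.5% of all genes. These comparisons share the 4 Ctrl TAC libraries and the 4 KO TAC libraries with the comparisons to sham above, so the values are not independent of those.

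Nestin had the largest difference of the 10. The KO TAC values of 52.8 to 60.4 CPM were all above the Ctrl TAC values of 42.8 to 49.6 CPM, a log2 difference of 0.32 ± 0.09 (1.25-fold, adjusted p = 0.0609). It passed with DESeq2 (adjusted p = 0.0186), in a fit to these 8 libraries alone (adjusted p = 0.0434), without Ctrl sham 1 (0.32, adjusted p = 0.0261) and without Ctrl TAC 4 (0.37, adjusted p = 0.0459), and it did not without KO TAC 4 (0.30, adjusted p = 0.127). Within the animal numbers that start with 25 (1 KO and 3 Ctrl TAC hearts) it was 0.40, and within the others (3 KO and 1 Ctrl) 0.32. The single KO heart numbered with 25 is KO TAC 4, whose genotype is in doubt, so for every member the value within that series may not compare KO with Ctrl.

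Vim was 0.22 ± 0.07 higher in KO TAC (adjusted p = 0.109), Lmna 0.17 ± 0.06 (adjusted p = 0.158) and Des 0.16 ± 0.06 (adjusted p = 0.181). They were 0.23, 0.20 and 0.17 without KO TAC 4. Within the numbers starting with 25 these were 0.16, 0.07 and 0.16, and within the others 0.29, 0.20 and 0.02. The fibroblast marker sums given above did not overlap between Ctrl TAC and KO TAC either, and 3 of the 10 markers were called higher in KO TAC. The part of those cells in the values of Vim, Nes and Lmna was not tested.

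Plec and Sgca were lower in KO TAC on average. For Plec the difference was -0.30 ± 0.10 (adjusted p = 0.108), and it was -0.18 without Ctrl TAC 2 and -0.22 without KO TAC 2, the highest and the lowest heart. It passed with DESeq2 (adjusted p = 0.048). Sgca differed by -0.20 ± 0.07 (adjusted p = 0.0951), and without Ctrl TAC 4 by -0.25, which passed (adjusted p = 0.0406). Its groups overlapped, with Ctrl TAC from 67.8 to 83.6 CPM and KO TAC from 62.6 to 69.5. The differences were -0.33 for Plec and -0.18 for Sgca without KO TAC 4. Within the 2 series of animal numbers Plec differed by -0.21 and -0.28 and Sgca by -0.26 and -0.18. The cardiomyocyte marker sums given above were lower in KO TAC than in Ctrl TAC without overlap. Of those 10 markers, 2 were called lower in KO TAC and 0 higher. The part of cardiomyocytes in the values of Plec and Sgca was not tested.

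For the remaining members the differences in TAC hearts were 0.05 ± 0.11 for Synm, -0.17 ± 0.10 for Dmd, -0.06 ± 0.05 for Dtna and -0.11 ± 0.11 for Sgcd. In the same order they were 0.08, -0.20, -0.10 and -0.14 without KO TAC 4. Dtna and Sgcd changed sign between the series of animal numbers, from 0.08 and 0.04 to -0.19 and -0.33. In the interaction, which tests whether the response to TAC itself differed by genotype, none of the 10 was called, where 0.0109% of all genes were called with edgeR (2024 genes had an unadjusted p under 0.05). The largest values were 0.28 ± 0.13 for Nes, -0.28 ± 0.14 for Plec and 0.25 ± 0.10 for Vim (adjusted p = 0.381 for Vim). Leaving out KO TAC 4 gave 0.25, -0.31 and 0.26, and over the 10 members the interaction then ran from -0.31 to 0.26.

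**Figure D4:**
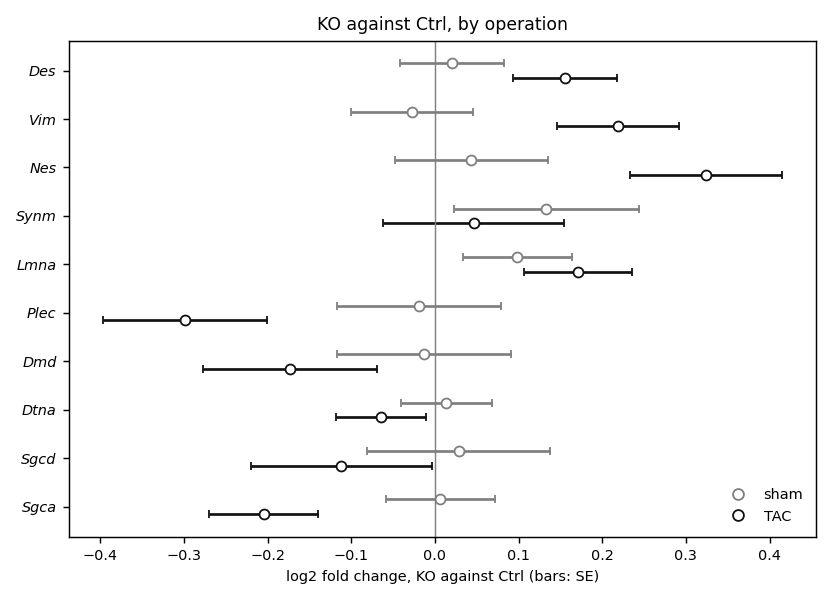
Log2 fold change of KO against Ctrl for the 10 members in sham and in TAC hearts. Points are edgeR estimates, bars are SE, and all points are open because no value passed an adjusted p of 0.05. The sham values lie between -0.03 and 0.13, and the TAC values spread from -0.30 (Plec) to 0.32 (Nes).

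The members were set among their partners with 6 lists of related genes. Their counts stand against the 20.0% of all genes called after TAC in Ctrl and the 34.3% called in KO. Of 12 other intermediate filament genes tested, 1 was higher after TAC in Ctrl and 4 in KO, and none was lower (list medians of 0.41 and 0.39). Krt80, a keratin, was the highest called gene in both among those with a mean of at least 1 on the log2 CPM scale, with a log2 fold change of 1.11 ± 0.21 in Ctrl and 1.06 ± 0.21 in KO, from 1.60 ± 0.566 CPM in Ctrl sham (Gm35853 lies across 263 bases of its exons on the opposite strand). Lmnb1 and Lmnb2, which encode the B-type lamins, were among those that rose in KO. Krt18, the keratin partner of Krt8 in simple epithelia, was higher in KO TAC than in Ctrl TAC by 1.41 ± 0.34 (adjusted p = 0.0374), but at levels of 1.53 ± 0.509 and 0.574 ± 0.301 CPM. Krt8 itself had the opposite sign in that comparison and was not called (-0.82 ± 0.71, adjusted p = 0.587). Summed mesothelial markers, another source of keratins, were 3.57 to 5.46 CPM in Ctrl TAC and 4.91 to 13.1 CPM in KO TAC, with Krt19, Lrrn4 and Upk1b under 1 CPM.

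Of 20 partners of intermediate filaments, chaperones, crosslinkers and desmosome anchors among them, 5 rose and 3 fell in Ctrl and 6 rose and 2 fell in KO (medians of 0.01 and -0.03). Ankrd1, a stretch-responsive repeat protein that binds titin and desmin, went from 816 ± 118 CPM in Ctrl sham to 3570 ± 827 in Ctrl TAC and from 859 ± 74.6 in KO sham to 4601 ± 85.0 in KO TAC. Ppl, which encodes periplakin, a relative of plectin, fell in both genotypes, with log2 fold changes of -1.29 in Ctrl and -2.05 in KO, from 13.6 ± 1.81 to 5.54 ± 1.45 CPM and from 13.1 ± 2.95 to 3.14 ± 0.742 CPM. Between KO TAC and Ctrl TAC, Ppl differed by -0.81 ± 0.21 and did not pass (adjusted p = 0.0532). That difference passed in 6 of 24 alternatives, among them the fit without KO TAC 4 (-0.96, adjusted p = 0.0369).

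Of 18 genes of the nuclear lamina and of the LINC complex, which couples the lamina to the cytoskeleton, 3 rose and 1 fell in Ctrl and 2 rose and 4 fell in KO (medians of -0.05 and -0.02), in both genotypes close to the share of all genes. The lamin-binding Tor1aip1 fell in both, with log2 fold changes of -0.32 in Ctrl and -0.31 in KO, from 109 ± 3.00 to 87.6 ± 4.37 CPM and from 108 ± 6.41 to 87.0 ± 2.64 CPM. The opposite-strand gene Tor1aip2 shares 699 bases with its exons. The highest of the list was Fhl1, a LIM protein of the sarcomere whose mutation, like that of Lmna, causes Emery-Dreifuss muscular dystrophy, at 1.27 ± 0.18 in Ctrl and 1.46 ± 0.18 in KO. Sun1 and Sun2, the inner membrane proteins of the LINC complex, were among those that fell in KO, with log2 fold changes of -0.22 and -0.25.

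Of 14 other genes of the dystrophin complex tested, 6 rose and 1 fell in Ctrl and 5 rose and 2 fell in KO (medians of 0.16 and 0.11). The syntrophins bind dystrophin and dystrobrevin and carry signalling proteins to the membrane. Sntb1 rose by 0.68 ± 0.12 in Ctrl and 0.99 ± 0.12 in KO, from 3.92 ± 0.665 to 6.25 ± 0.304 CPM and from 3.83 ± 0.312 to 7.63 ± 1.07 CPM.

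The other sarcoglycans can be set beside Sgca. Sgcb, beta-sarcoglycan, fell in both, with log2 fold changes of -0.16 in Ctrl and -0.17 in KO (SE 0.04 in both, adjusted p = 0.00949 and 0.00432), from 150 ± 5.52 to 134 ± 3.14 CPM and from 145 ± 5.59 to 129 ± 1.71 CPM. Sgce, epsilon-sarcoglycan, which is not confined to muscle, rose by 0.21 in Ctrl and by 0.28 in KO. Sgca and Sgcb were thus lower after TAC in both genotypes, and Sgcd was not called.

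Of 17 genes that glycosylate dystroglycan tested, 1 rose and 3 fell in Ctrl and 1 rose and 5 fell in KO (medians of 0.08 and -0.03). In both genotypes this was close to the share of all genes. Pomgnt2, which helps build the sugar chain that holds laminin, fell in both, with log2 fold changes of -0.33 in Ctrl and -0.43 in KO. B4gat1 fell in Ctrl (-0.45 ± 0.12), where a same-strand gene shares 1967 bases of its exons. With a term for animal numbers starting with 25 this was -0.29 and did not pass (adjusted p = 0.22). Dpm1, which makes the mannose donor, was the list's call between KO TAC and Ctrl TAC, at -0.67 ± 0.14 (adjusted p = 0.0252), and in the interaction, at -1.52 ± 0.20 (adjusted p = 0.0168), but the interaction missed the threshold in 13 of 23 alternatives. It was -1.54 to -1.47 in the 9 of these that left out 1 library (Ctrl sham 2 or 4, KO sham 1, 3 or 4, Ctrl TAC 2 or 3, or KO TAC 1 or 2; adjusted p = 0.054 to 0.0721), and it was lost with a term for animal numbers starting with 25 (adjusted p = 0.0828) or 33 (adjusted p = 0.0509). In addition, 895 bases of its exons are shared with Gm20716 on the same strand, so its counts are uncertain.

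Of 22 genes of membrane repair and of the costamere, the rib-like attachment of Z-discs to the membrane, 13 rose and none fell in Ctrl, and 13 rose and 1 fell in KO (medians of 0.19 and 0.28). Flnc, which encodes the filamin of muscle, rose by 1.02 ± 0.15 in Ctrl and 0.69 ± 0.15 in KO. Myof, myoferlin, rose by 0.54 ± 0.12 and 0.93 ± 0.12, and Dysf, its relative in membrane repair, by 0.25 and 0.28. Trim72, the membrane repair protein also called MG53, went from 344 ± 3.58 to 553 ± 26.2 CPM in Ctrl and from 356 ± 22.4 to 465 ± 24.7 CPM in KO. It was lower in KO TAC than in Ctrl TAC (-0.25, SE 0.05, adjusted p = 0.0206), which did not pass without Ctrl TAC 2 (-0.22, adjusted p = 0.0808). Lims2, a partner of integrin-linked kinase, was lower too (-0.37, SE 0.09, adjusted p = 0.0455), at -0.29 without Ctrl TAC 2 (adjusted p = 0.164). Genes on the opposite strand cover 617 bases of the exons of Trim72 and 188 bases of those of Lims2. These calls between KO TAC and Ctrl TAC rest on few hearts. Without KO TAC 4, Krt18, Dpm1 and Trim72 still passed and Lims2 did not (-0.40, adjusted p = 0.0507). Without Ctrl TAC 2, without KO TAC 2 or without KO TAC 3 none of these 4 passed. With a term for animal numbers starting with 25 none did either (adjusted p = 0.112 to 0.258), but that term leans on Ctrl TAC 1 and KO TAC 4. Krt18 was 1.13 to 1.43 over the fits without 1 library in which it did not pass. In sham hearts, edgeR called no gene of the 6 lists between the genotypes, while DESeq2 called Dpm1 (0.85, adjusted p = 1.82e-05), at 43.1 ± 1.78 CPM in KO sham and 23.9 ± 4.06 in Ctrl sham. Dpm1 also passed with edgeR without Ctrl sham 3 (adjusted p = 0.0385), without Ctrl TAC 4 (adjusted p = 0.0334) and in a fit to the 8 sham libraries (adjusted p = 0.0354). Without KO TAC 4 the 6 lists, in the order given, held 4, 9, 7, 7, 4 and 13 genes called after TAC in KO. The share of all genes in that fit is not given here.

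**Figure D5:**
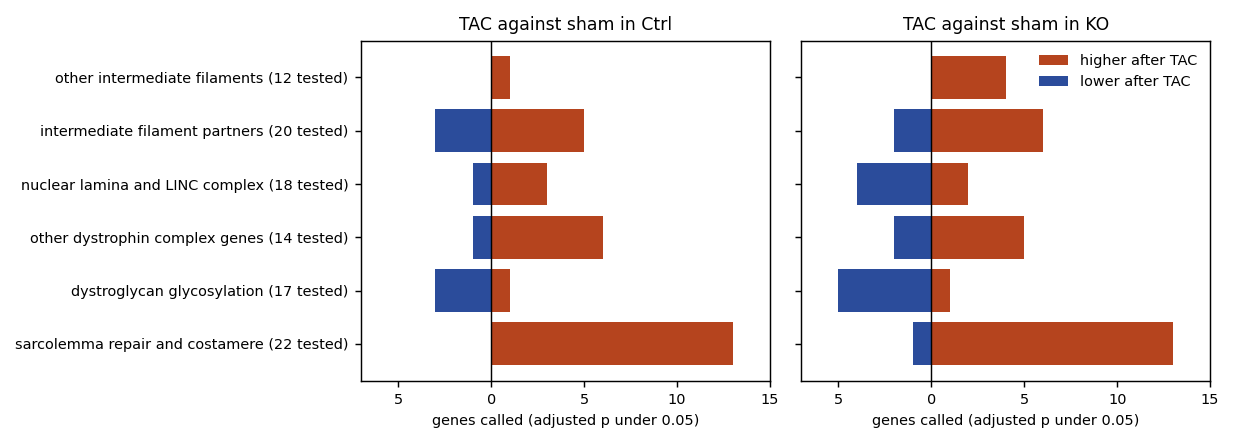
Number of genes called higher (right of 0) or lower (left of 0) after TAC in each of 6 lists of related genes, in Ctrl and in KO hearts, at an adjusted p under 0.05 with edgeR. The number of genes tested stands beside each list, and 20.0% of all genes were called in Ctrl and 34.3% in KO. In the list of sarcolemma repair and costamere genes 13 of 22 were higher in both genotypes. Of 17 dystroglycan glycosylation genes, 4 were called in Ctrl and 6 in KO, close to the share of all genes.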

How the data were processed

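RNA of the apex of 16 mouse hearts was sequenced from poly(A)-selected TruSeq libraries as paired reads of 150 bp. The authors deposited the raw counts of 55487 Ensembl genes in 1 table, whose 16 columns were matched here to the samples by animal number. Per the submitters' processing notes, cutadapt 2.3, FastQC, HISAT2 2.1.0 and edgeR 3.26.1 were used with build GRCm38. The counting program, the annotation and the use of strand are not given in the sources used here.

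Gene names came from GENCODE M21, which held 55141 of the identifiers (99.38%). Genes were filtered with filterByExpr (18275 kept), scaled by TMM and tested in edgeR 4.0.16 (R 4.3.3) with a quasi-likelihood fit (glmQLFit, robust) of 4 group means to all 16 libraries and 5 contrasts. P-values were Benjamini-Hochberg adjusted over all tested genes and called under 0.05. The SE of a log2 fold change was its size divided by the square root of F. Levels are CPM on TMM-scaled totals, mean ± SD over 4 libraries. Totals of 53169437 to 79404714 counts limit low genes only through counting error. Replicates are separate mice, numbered in sample order. In every pair of libraries of a group at least 36.49% of genes differed by more than sampling noise, so all 16 libraries were counted. Ratios of counts were compared as log2 values (pseudocount 0.5) with two-sided exact permutation tests, adjusted over 12. The fit was tested on simulated data.

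The 10 members and all gene lists were chosen with earlier results of these data known. Named were the members, Utrn, Dag1, Gm12295, the called list gene with the highest and the lowest fold change after TAC (mean log2 CPM of at least 1) and up to 6 list genes called between genotypes, some of which are not reported here. Lmnb1, Lmnb2, Sun1, Sun2, Sgce, Pomgnt2 and Dysf were chosen after their values were seen. The alternatives were DESeq2 1.42.0, other filters, scalings and thresholds, terms for the animal-number series, fits to 8 libraries and fits without single libraries.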

Additional observations from a re-analysis of the deposited data

Results flagged for a closer look

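Each group of 4 libraries was searched for a heart standing apart from the other three by Dixon's ratio of the gap to the range, at its 95% critical value. Chance alone flags about 1 in 20 groups, and 40 groups of members were searched. For Synm, Ctrl sham 2 stood apart at 12.5 CPM and KO sham 2 at 12.1 CPM, each above the other sham hearts of its genotype. No group of the other 9 members held such a heart. For Gm12295, the deleted gene, Ctrl TAC 1 stood apart at 8.02 CPM, and the library labelled KO TAC 4 at 4.55 CPM, where the other KO TAC libraries lay under 1 CPM. The causes were not tested.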

How the results depend on the processing

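Over 50 values of the members and their alternatives, 1142 of 1190 values kept their call, 36 lost it, 12 gained it and none that was called changed direction. A value called in neither fit counts as kept, and most values were of this kind. Only 7 members in Ctrl and 6 in KO were called, all after TAC. Of 24 alternatives each, calls were lost in 5 for Synm in Ctrl and 15 for Synm in KO. In Ctrl they were also lost in 8 for Dmd, 7 for Dtna and 1 for Sgca. In Ctrl hearts, 4 of the 7 members called after TAC remained at an adjusted p under 0.01 and 4 with a term for animal numbers starting with 25 (Dmd 0.25, Dtna 0.16 and Sgca -0.27 did not pass), and 4 to 8 were called when single libraries were left out (4 without Ctrl TAC 4, where Synm, Dmd and Dtna did not pass). In KO hearts the count was 5 to 7 without single libraries. Between KO TAC and Ctrl TAC, 2 members were called with DESeq2 and 1 in a fit to the 8 libraries of these groups, and 0 to 2 without single libraries. In sham hearts and in the interaction it stayed at 0. The shares of all genes called under these alternatives are not given here, so the counts have no background beside them. Leaving out single libraries, the log2 gain of Sgcd on Sgca was 0.40 to 0.59 in Ctrl and 0.44 to 0.67 in KO, with exact permutation p from 0.0286 to 0.0571, and it was 0.52 in KO with Ctrl TAC 2 and KO TAC 4 both omitted (p = 0.0571). Utrn against Dmd in KO was -0.15 to -0.052, and the -0.15 without KO TAC 2 had an exact permutation p of 0.0286. The cause of these shifts was not tested. No paired analysis was possible because the labels give animal numbers and no replicate numbers, so numbers shared between groups pair nothing. The fits share libraries between comparisons, and the labelled genotype of KO TAC 4 is in doubt. In Ctrl no series of animal numbers holds both sham and TAC hearts, and in KO only the numbers starting with 34 do.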
